A study of Mus musculus with 9 samples.

Results

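Splicing regulators of the fetal gonad were described as a set of 34 genes: SR proteins, hnRNPs, factors that recognise the 3′ splice site, tissue splicing regulators and a pair of DBHS proteins. The genes were listed by name, with earlier results of these data known, and matched by symbol to mouse Ensembl gene identifiers. All 34 were among the 15300 genes measured. RNA sequencing had been done on gonads of C57BL/6 mice at E13.5, the embryonic day, freed from the mesonephros, with 3 samples in each of 3 groups. XX-WT was ovary of genotype XX Sox9flox/flox wildtype, and XY-WT was testis of genotype XY Sox9flox/flox wildtype. XY-KO was testis of genotype XY AMH-Cre; Sox9flox/flox, so every group carried the floxed Sox9 alleles and XY-KO alone carried Cre. The AMH promoter drives Cre in Sertoli cells, the supporting cells of the testis, and other gonadal cells keep an intact gene. It is not stated whether a sample was 1 fetus or a pool, or whether the samples of a group came from separate litters. The p-values therefore measure the spread between these samples.

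Pre-mRNA splicing removes introns and joins exons, and most mouse genes can be spliced in more than one way. SR proteins mostly bind exonic enhancers and favour exon inclusion, whereas many hnRNPs bind silencers and oppose it. SF1, U2AF and the SF3 complexes mark the branch point and the 3′ splice site, and proteins of the RBFOX, CELF, MBNL, KHDRBS, NOVA and ESRP families shift exon choice in particular tissues. SOX9, a transcription factor, directs the differentiation of Sertoli cells. What was measured here was the RNA level of each regulator over its whole gene, not the splicing of any exon.

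The values were the authors' own group comparisons by limma, a linear model test fitted over all genes. A gene was called higher or lower where the adjusted p (Benjamini-Hochberg, over 15300 genes) was under 0.05. The standard error (SE) was that implied by the authors' t. Levels in CPM (reads of a gene relative to the library's total) were derived for each group from the deposited mean and fold changes, so no value of a single sample is given and the depth of each sample is unknown. Sox9 checked the labels: its derived level was 89.4 CPM in XY-WT, 13.2 CPM in XY-KO and 4.02 CPM in XX-WT, and the authors' deposited table gave a log2 fold change of -2.76 between XY-KO and XY-WT (SE 0.172, adjusted p 8.93e-07). Of 8 Sertoli cell markers, 7 were called lower in XY-KO than in XY-WT, and 7 were lower in XX-WT. All 7 pre-granulosa markers were higher in XX-WT than in XY-WT, and all 4 fetal Leydig markers were lower. These directions match the labelled tissues. In bulk tissue, fewer cells of a type and less RNA per cell cannot be told apart.

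The splicing regulators were abundant. The mean level of the members on the log2 CPM scale ran from 1.52 to 9.70 with a median of 6.98, against a median of 3.2 over all genes, and 32 of the 34 lay at or above the all-gene median. The exceptions were Khdrbs2 and Nova1. Levels were compared between genes per kilobase of annotated exon, as the mean over the 3 groups. The length was that of all annotated exons of a gene joined, and the order of genes depends on this choice. It was 6584 nt for Hnrnpa2b1, whose longest transcript has 3645 nt, and 3153 nt for Hnrnpa1, whose longest transcript has 3118 nt. Hnrnpa1, a silencer-binding protein, stood at 149 CPM per kb, and its relative Hnrnpa2b1 at 126 CPM per kb. The SR protein gene Srsf5 followed at 103 CPM per kb, Sfpq at 77.0 CPM per kb and Srsf1, the best studied SR protein gene, at 70.4 CPM per kb. The lowest were regulators best known from epithelium and brain: Esrp2 at 2.87 CPM per kb, Esrp1 at 2.03 CPM per kb, Nova1 at 0.911 CPM per kb and Khdrbs2 at 0.279 CPM per kb.

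**Figure D1:**
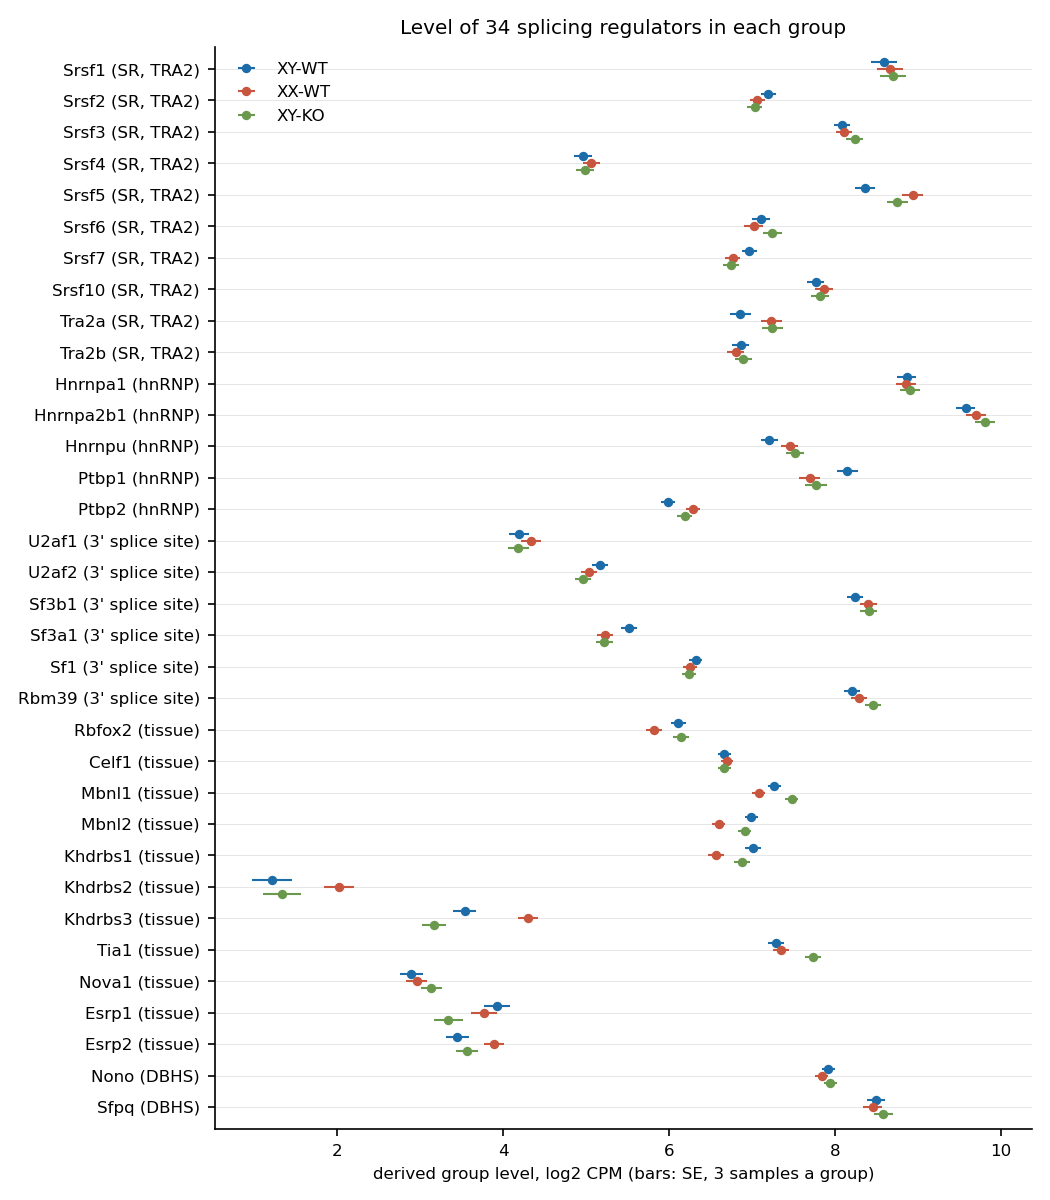
Derived level of the 34 splicing regulators in each group, in log2 CPM, with bars of the derived SE (3 samples a group). Most genes have 3 overlapping points, whereas Khdrbs3 and Khdrbs2 are spread over 1.13 and 0.81 log2 units.

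Across the 3 groups the levels moved little. The range between the highest and the lowest group had a median of 0.233 log2 units over the members, 0.448 over all annotated genes and 0.326 over genes at or above the median level. For 18 members (52.9%) the range was under 0.25 log2 units, which 24.4% of all genes were. In all, 5 members were called in at least 1 comparison, against 28.0% of all genes, and these were Srsf5, Mbnl1, Mbnl2, Khdrbs1 and Khdrbs3. In the plot of levels the groups lie farthest apart for Khdrbs3, followed by Khdrbs2, Esrp1, the SR gene Srsf5 and the hnRNP gene Ptbp1, whose ranges were 1.13, 0.81, 0.58, 0.57 and 0.45 log2 units.

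The comparison of XY-KO with XY-WT asked whether the level of these genes differed where Sox9 was deleted by AMH-Cre. None of the 34 members was called, where 2.27% of all genes were, 0.699% higher and 1.57% lower. At an unadjusted p under 0.05 by limma, 5 members passed (14.7%, against 18.95% of all genes), 3 with a fold change above 0 and 2 below. The median log2 fold change was 0.04 over the members and -0.01 over all genes. The 95% interval lay within 2-fold either way for 33 members (97.1%), which held for 70.9% of all genes and for 94.8% of genes at or above the median level. The exception was Esrp1, whose interval reached down to -1.07 on the log2 scale. Such intervals leave room for changes smaller than 2-fold.

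Tia1, an RNA-binding protein of stress granules that helps the U1 particle at weak 5′ splice sites, had the smallest adjusted p of the members. Its derived level was 156 CPM in XY-WT, 164 CPM in XX-WT and 213 CPM in XY-KO. The authors' deposited table gave Tia1 (ENSMUSG00000071337, GRCm38 chromosome 6, 86404219 to 86433405) a log2 fold change of 0.44 between XY-KO and XY-WT (SE 0.138, adjusted p 0.109). That is 1.36-fold, with a 95% interval of 1.11 to 1.67. The adjusted p became 0.0421 when the adjustment ran over the 3 comparisons together. Esrp1, a driver of epithelial splice patterns, was the next: its derived level was 15.2 CPM in XY-WT, 13.6 CPM in XX-WT and 10.1 CPM in XY-KO. For Esrp1 (chromosome 4, 11331933 to 11386783) the authors' deposited table gave -0.58 (SE 0.231, adjusted p 0.191). Srsf5 came next in the authors' deposited table, with 0.39 (SE 0.173, adjusted p 0.241). Epithelial markers stood beside Esrp1: Epcam was at 15.4, 14.3 and 10.2 CPM in XY-WT, XX-WT and XY-KO, Cdh1 at 14.7, 12.1 and 8.95 CPM, and both had the same order of groups as Esrp1. The other 5 markers were highest in XX-WT, and the 7 summed to 52.9, 72.6 and 38.6 CPM. None of the 7 was called in this comparison. Of 9 germ cell markers, Pou5f1 (11.8, 11.3 and 8.10 CPM) and Dppa3 (86.9, 81.9 and 78.8 CPM) also had the order of Esrp1, and the rest did not. The part of epithelial or germ cells in the value for Esrp1 was not tested.

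**Figure D2:**
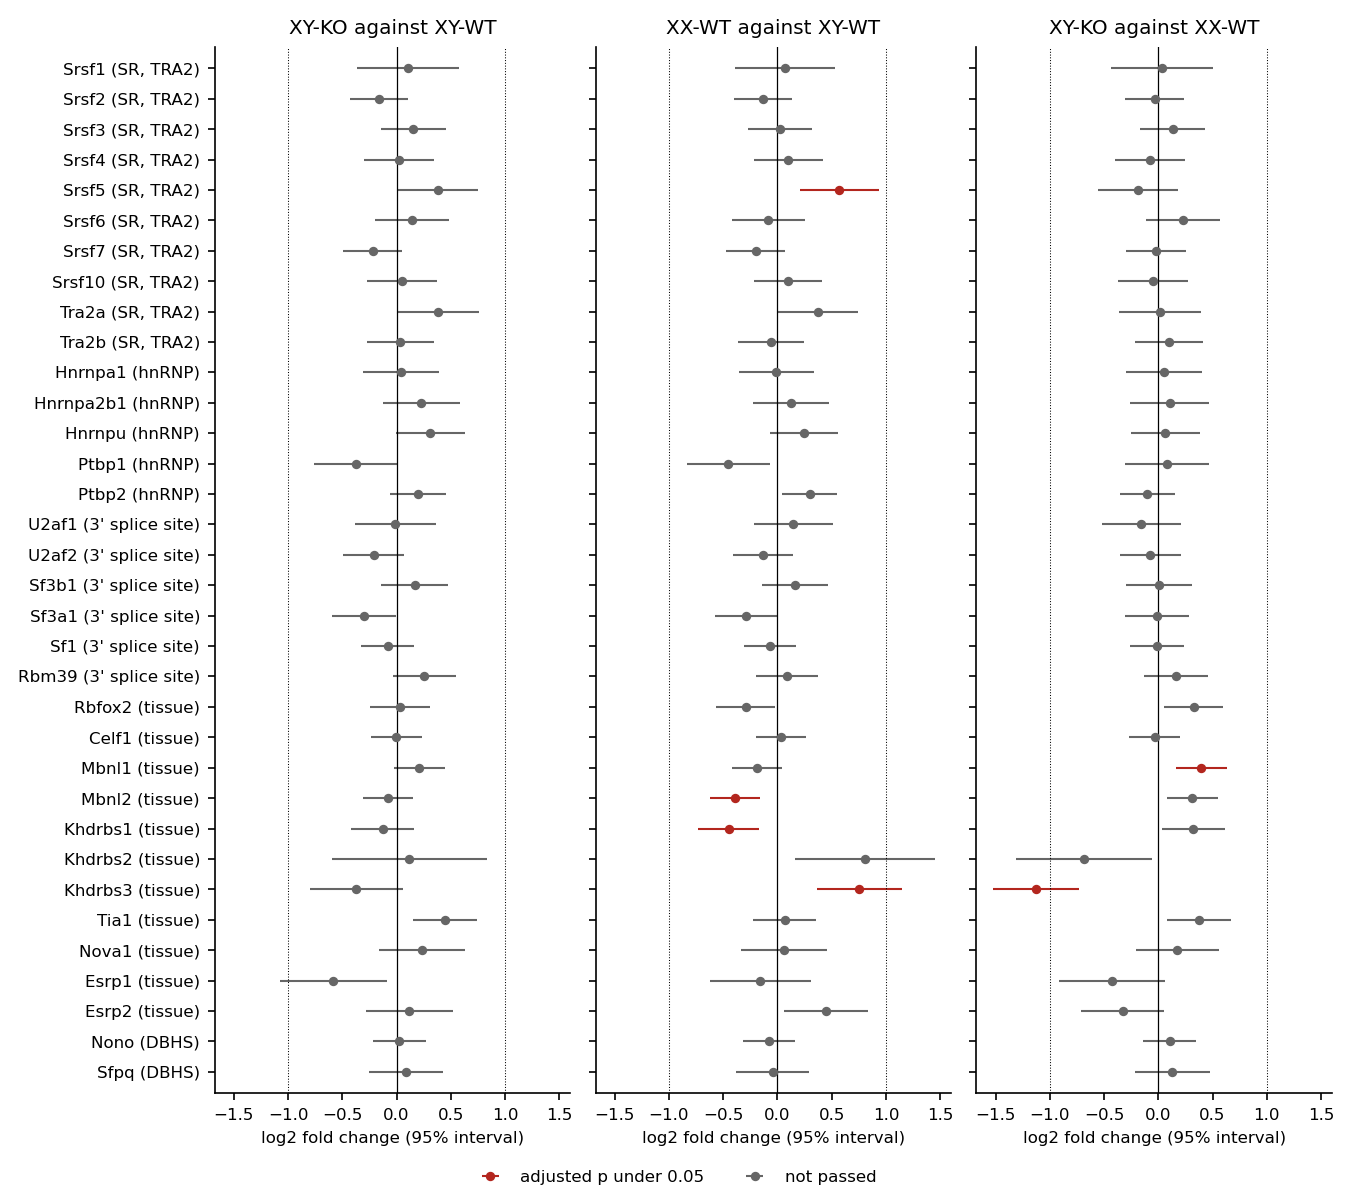
Log2 fold change of each splicing regulator with its 95% interval in the authors' 3 comparisons, dotted lines at 2-fold and red where the adjusted p was under 0.05. No member is red in XY-KO against XY-WT, 4 are in XX-WT against XY-WT and 2 in XY-KO against XX-WT.

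The comparison of XX-WT with XY-WT set ovary against testis. Here 4 of the 34 members were called (11.8%), 2 higher and 2 lower in XX-WT, where 23.3% of all genes were called, 10.9% higher and 12.4% lower. The median log2 fold change was 0.03 over the members and 0.00 over all genes. The median size of the change, regardless of sign, was 0.139 log2 units over the members, 0.321 over all genes and 0.237 over genes at or above the median level. By role, 1 of 10 SR and TRA2 genes and 3 of 11 tissue regulators were called. None of 5 hnRNPs, 6 splice-site factors or 2 DBHS genes was called. These counts were not tested against each other.

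Among the SR and TRA2 genes, Srsf5 alone was called. Its product binds exonic enhancers. The derived level was 330 CPM in XY-WT, 490 CPM in XX-WT and 431 CPM in XY-KO, so XY-WT was lowest. Srsf5 (ENSMUSG00000021134, chromosome 12, 80945504 to 80950507) rose by 0.57 log2 units in the authors' deposited table of XX-WT against XY-WT (SE 0.171, adjusted p 0.0241), or 1.49-fold (95% interval 1.15 to 1.91). Between XY-KO and XX-WT the authors' deposited table gave Srsf5 -0.19 (adjusted p 0.532). Tra2a, a cofactor of SR proteins, had 0.37 in XX-WT (adjusted p 0.143) and 0.38 in XY-KO (adjusted p 0.257) against XY-WT in the authors' deposited tables. Both comparisons share the XY-WT samples. Its paralog Tra2b had -0.06 and 0.03 in the same deposited tables of the authors. The other 7 SR genes (Srsf1, Srsf2, Srsf3, Srsf4, Srsf6, Srsf7 and Srsf10) lay between -0.22 and 0.22 in all 3 of the authors' deposited tables.

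Among the hnRNPs, Ptbp1 and Ptbp2 are paralogs that repress many of the same exons, and outside neurons PTBP1 keeps Ptbp2 low through exon skipping and decay of its message. The derived level of Ptbp1 was 284 CPM in XY-WT, 207 CPM in XX-WT and 219 CPM in XY-KO, and that of Ptbp2 was 63.6, 78.1 and 72.9 CPM. Ptbp1 was thus highest and Ptbp2 lowest in XY-WT, but neither passed the test. The authors' deposited table gave Ptbp1 -0.45 (adjusted p 0.081) and Ptbp2 0.30 (adjusted p 0.085) in XX-WT against XY-WT. With the trend of fold change with GC content and length subtracted, Ptbp1 had -0.32 in XX-WT (adjusted p 0.233) and -0.21 in XY-KO (adjusted p 0.628), both against XY-WT. Ptbp2 then had 0.16 (adjusted p 0.364) and 0.05 (adjusted p 0.895). The 2 comparisons share the XY-WT samples, and an effect of PTBP1 on Ptbp2 was not tested. Per kilobase, Ptbp2 made up 7.44% of the summed level of Ptbp1, Ptbp2 and their relative Ptbp3 in XY-WT, 10.7% in XX-WT and 10.1% in XY-KO. Hnrnpa1, Hnrnpa2b1 and the nuclear matrix protein gene Hnrnpu lay between -0.01 and 0.31 in all 3 of the authors' deposited tables.

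None of the factors of the branch point and 3′ splice site passed in any comparison. Sf1 binds the branch point, U2af1 and U2af2 the 3′ splice site, and Sf3a1 and Sf3b1 belong to the U2 particle, while Rbm39 is a U2AF-related protein. Sf3a1 had the lowest values, -0.30 in XY-KO (adjusted p 0.253) and -0.29 in XX-WT (adjusted p 0.139), both against XY-WT, in the authors' deposited tables. The remaining 5 genes lay between -0.21 and 0.26 in the authors' deposited tables of all 3 comparisons. Nono and Sfpq, DBHS proteins of nuclear paraspeckles, lay between -0.08 and 0.13 in the authors' deposited tables. Nono is X-linked and was at -0.08 in XX-WT against XY-WT in the authors' deposited table.

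Of the tissue regulators, the KHDRBS family of STAR proteins, held the genes with the widest and the next widest range of level over the groups, Khdrbs3 and Khdrbs2. The derived level of Khdrbs3 was 11.6 CPM in XY-WT, 19.6 CPM in XX-WT and 8.99 CPM in XY-KO, so both testis groups were below ovary. Khdrbs3 (ENSMUSG00000022332, chromosome 15, 68928420 to 69101211) was, in the authors' deposited table, 0.76 higher in XX-WT than in XY-WT (SE 0.182, adjusted p 0.00677), or 1.69-fold (95% interval 1.29 to 2.21). It was also the one member called in both comparisons with ovary. Khdrbs1, the most abundant of the family, went the other way: 129 CPM in XY-WT, 94.5 CPM in XX-WT and 118 CPM in XY-KO. The authors' deposited table put Khdrbs1 (ENSMUSG00000028790, chromosome 4, 129703164 to 129742303) at -0.45 in XX-WT (SE 0.134, adjusted p 0.0231), or 1.37-fold lower (95% interval 1.12 to 1.66). Khdrbs2 was scarce, at 2.32 CPM in XY-WT, 4.05 CPM in XX-WT and 2.52 CPM in XY-KO, and the authors' deposited table gave 0.81 in XX-WT with an adjusted p of 0.0682. Per kilobase, Khdrbs3 made up 26.2% of the summed family level in XX-WT, against 13.51% in XY-WT and 11.6% in XY-KO.

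Germ cell markers were also higher in ovary. Of 9 such markers 6 were called higher in XX-WT than in XY-WT, none was called in XY-KO against XY-WT, and 7 were lower in XY-KO than in XX-WT. Their summed derived level was 413 CPM in XY-WT, 632 CPM in XX-WT and 340 CPM in XY-KO, the same order as Khdrbs3. Dppa3 and Pou5f1 among them were highest in XY-WT instead. The summed epithelial, erythroid and macrophage markers also had the order of Khdrbs3, so that order was not particular to germ cell markers. Pre-granulosa markers summed to 32.7, 364 and 42.0 CPM. For Khdrbs1, Mbnl1 and Mbnl2, each lowest in XX-WT, the Sertoli markers summed to 517, 24.9 and 174 CPM and the Leydig markers to 612, 21.3 and 602 CPM in the same order of groups. The endothelial markers, at 164.6, 152.5 and 159.2 CPM, and the neural markers, at 17.1, 14.2 and 19.5 CPM, were also lowest in XX-WT when summed. A lowest value in XX-WT was thus not particular to Sertoli and Leydig markers. The part of cell composition in these results was not tested.

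Muscleblind proteins, the MBNL family, bind YGCY-type motifs and promote the exon patterns of differentiated tissue. The derived level of Mbnl2 was 127 CPM in XY-WT, 97.0 CPM in XX-WT and 121 CPM in XY-KO. The authors' deposited table put Mbnl2 (ENSMUSG00000022139, chromosome 14, 120275669 to 120431697) at -0.39 in XX-WT against XY-WT (SE 0.109, adjusted p 0.0157), or 1.31-fold lower (95% interval 1.12 to 1.54). Mbnl1 had 154 CPM in XY-WT, 136 CPM in XX-WT and 178 CPM in XY-KO, and in this comparison the authors' deposited table gave -0.19 (adjusted p 0.238). Both genes were lowest in ovary.

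The rest of the tissue regulators did not pass in any comparison. Rbfox2, which binds GCAUG-type motifs, had -0.29 in XX-WT against XY-WT in the authors' deposited table (adjusted p 0.116). Esrp2, the paralog of Esrp1, was at 10.9 CPM in XY-WT, 14.9 CPM in XX-WT and 11.8 CPM in XY-KO, and the authors' deposited table gave 0.45 in XX-WT (adjusted p 0.093). With the trend of fold change with GC content and length subtracted, Esrp2 had 0.64 (adjusted p 0.0195). Of the 7 epithelial markers, 4 were called higher in XX-WT than in XY-WT, and their part in this value was not tested. Celf1 lay between -0.03 and 0.03 and Nova1, known from neurons, between 0.06 and 0.24 in all 3 of the authors' deposited tables.

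Promoter windows of 250 bases upstream of the start were examined for the letters that SOX proteins bind, since the study deletes Sox9. RefSeq sequences (GRCm38.p6) held 34 windows for 28 of the 34 members. The letters ACAATG, on either strand, were in 0 of the 34 windows, against 10.7% of 32851 windows of all genes. ACAAAG, on either strand, was in 8 windows (23.5%), against 16.5% of all windows, and either motif was in 23.5% and 25.2%. Median GC content was 62.8% in the members' windows and 52.4% in all, with medians of 22 and 6 CpG dinucleotides. The windows of Mbnl2 (chr14:120275419-120275668, plus strand) and Srsf5 (chr12:80945249-80945498, plus strand) are printed because these are called genes, 1 with a match and 1 without, read 5′ to 3′ with capitals marking ACAAAG on the reverse strand.
Mbnl2: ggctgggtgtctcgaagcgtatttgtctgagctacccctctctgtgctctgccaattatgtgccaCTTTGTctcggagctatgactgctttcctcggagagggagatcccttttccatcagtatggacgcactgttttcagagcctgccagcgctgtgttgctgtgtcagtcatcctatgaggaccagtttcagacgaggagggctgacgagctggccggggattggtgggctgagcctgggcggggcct
Srsf5: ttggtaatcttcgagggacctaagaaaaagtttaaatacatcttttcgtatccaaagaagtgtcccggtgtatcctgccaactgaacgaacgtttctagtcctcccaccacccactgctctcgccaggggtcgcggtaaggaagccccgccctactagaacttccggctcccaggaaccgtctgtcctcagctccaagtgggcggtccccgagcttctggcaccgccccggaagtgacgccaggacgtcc
The Mbnl2 window had a GC content of 57.2% and 10 CpG dinucleotides, and the Srsf5 window 56.8% and 17. A match of letters is not a binding site, and the absence of a match says nothing about binding elsewhere.

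The comparison of XY-KO with XX-WT asked how the testis with Sox9 deleted by AMH-Cre differed from ovary. Some Sox9 RNA remained in XY-KO, at 13.2 CPM against 4.02 CPM in XX-WT. Of the 34 members 2 were called (5.88%), 1 higher and 1 lower in XY-KO, where 18.3% of all genes were called, 9.16% higher and 9.11% lower. The median log2 fold change was 0.02 over the members and 0.00 over all genes. The median size of the change was 0.105 log2 units over the members, 0.272 over all genes and 0.203 over genes at or above the median level. In the authors' deposited table Khdrbs3 fell by 1.13 log2 units in XY-KO against XX-WT (SE 0.188, adjusted p 0.000473), or 2.19-fold lower (95% interval 1.66 to 2.88). Against XY-WT the authors' deposited table gave Khdrbs3 -0.37 (SE 0.201, adjusted p 0.333). Mbnl1 (ENSMUSG00000027763, chromosome 3, 60472830 to 60629750) rose in XY-KO against XX-WT, by 0.40 per the authors' deposited table (SE 0.111, adjusted p 0.0202), or 1.32-fold (95% interval 1.12 to 1.55). For Mbnl2 and Khdrbs1, the authors' deposited table of this comparison gave 0.31 (adjusted p 0.0606) and 0.32 (adjusted p 0.123). XX-WT was below both testis groups for each of these genes except Khdrbs3.

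Over the 34 members, XY-KO was the highest of the 3 groups for 16 (47.1%, against 28.1% of all genes), and XY-WT was the lowest for 15 (44.1%, against 33.3%). These orders were not tested and include ranges below the SE. Hnrnpa1, for example, differed by 0.048 log2 units between XY-KO and XX-WT (SE 0.165). A trend with base composition ran through XY-KO against XY-WT. In 20 bins of at least 381 genes at or above the median level, the median log2 fold change went from 0.15 in the bin with a median GC content of 37.6% to -0.30 in the bin at 59.2%. The trend fitted on GC content and length ran the same way in XX-WT against XY-WT, which shares the XY-WT samples. For Ptbp1 (GC content 53.7%), for example, it was -0.16 in XY-KO and -0.14 in XX-WT, both against XY-WT. For Ptbp2 (GC content 34.25%) it was 0.15 and 0.13. In XY-KO against XX-WT it was -0.03 for Ptbp1 and 0.02 for Ptbp2. The source of the trend was not tested. The members' longest transcripts had a median GC content of 43.9%, against 49.0% over all annotated genes. With the trend subtracted, 0 members were called in XY-KO against XY-WT (1.71% of all genes) and their median was 0.07. In XX-WT against XY-WT 3 members were then called higher (11.6% of all genes) and 2 lower (10.7% of all genes).

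**Figure D3:**
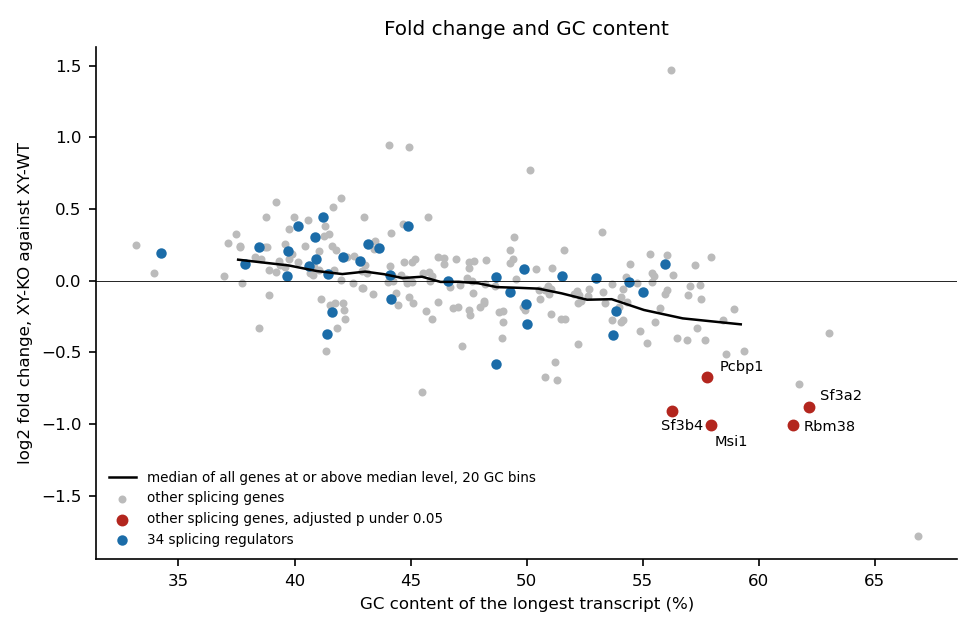
Log2 fold change of XY-KO against XY-WT plotted against the GC content of the longest transcript, for the 34 splicing regulators (blue) and 200 other splicing genes (grey, or red at an adjusted p under 0.05), with the median of all genes at or above the median level in 20 bins as a line. The line falls from 0.15 at a GC content of 37.6% to -0.30 at 59.2%.

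The annotation of these genes also listed many transcripts, a trait that other splicing genes shared in part. In GENCODE M21 a transcript marked for nonsense-mediated decay, the pathway that destroys messages with early stop codons, was listed for 22 of the 34 members (64.7%). The share was 24.6% over all annotated genes, 30.3% over genes at or above the median level and 41% over 200 other splicing genes. Many SR proteins and hnRNPs are known to limit their own level through such transcripts, made for example by including a so-called poison exon. By role, 9 of 10 SR and TRA2 genes, 5 of 5 hnRNPs, 5 of 6 splice-site factors, 3 of 11 tissue regulators and 0 of 2 DBHS genes had one. A retained-intron transcript was listed for 28 members (82.4%), against 51.3% of all annotated genes. It was listed for 63.9% of genes at or above the median level and 73.5% of the other splicing genes. The median number of transcripts was 9 for the members, 7 for the other splicing genes, 6 for genes at or above the median level and 4 for all. A whole-gene value sums productive and unproductive transcripts, so these data cannot tell a switch between them from another change of level. Several members overlap a tested gene on the opposite strand, and the strand setting of the counting is not given in the sources used here. Among the called genes this holds for Mbnl2, which overlaps Gm26679, and among the others for Srsf1, Srsf2, Srsf4, Hnrnpu, Ptbp1, Sf1, Rbfox2 and Esrp2.

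Family relatives outside the 34 were read beside them. Mbnl3, the muscleblind gene on the X chromosome, had a derived level of 3.40 CPM per kb in XY-WT, 12.1 in XX-WT and 4.38 in XY-KO. Mbnl1 in the same units was at 8.25, 7.24 and 9.53, and Mbnl2 at 10.6, 8.09 and 10.1. Mbnl3 thus made up 44.1% of the summed MBNL level in XX-WT, against 15.3% in XY-WT and 18.3% in XY-KO. The size of such family shares depends on the length used. The joined exons of Mbnl1 and Mbnl2 measured 18717 and 11993 nt, and their longest transcripts 5655 and 5561 nt. The authors' deposited tables gave Mbnl3 1.83 in XX-WT against XY-WT (adjusted p 9.99e-08), 0.36 in XY-KO against XY-WT (adjusted p 0.178) and -1.46 in XY-KO against XX-WT (adjusted p 1.18e-06). Rbfox1, the relative of Rbfox2 best known from neurons and muscle, had 2.74 in XX-WT against XY-WT (adjusted p 2.16e-05) and -1.80 in XY-KO against XX-WT (adjusted p 0.000152) in the authors' deposited tables. It made up 22.3% of the summed level of Rbfox1 and Rbfox2 in XX-WT, 3.39% in XY-WT and 6.17% in XY-KO.

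**Figure D4:**
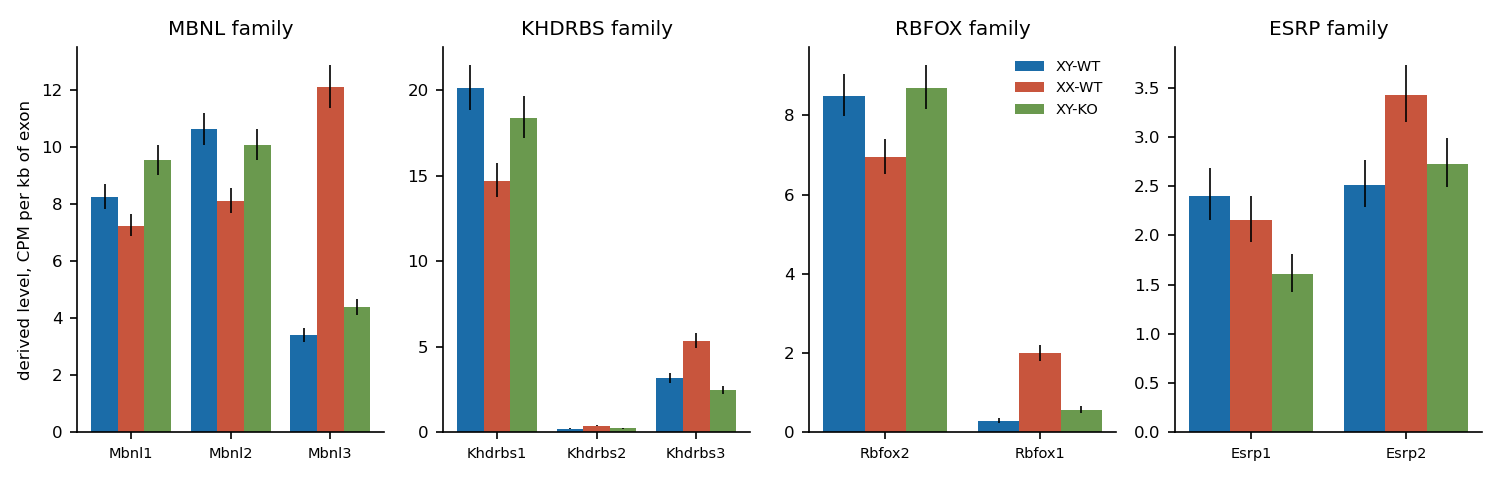
Derived level per kilobase of exon for the MBNL, KHDRBS, RBFOX and ESRP genes in each group, with bars of the derived SE and a separate scale for each family. Mbnl3 reaches 12.1 CPM per kb in XX-WT and 3.40 and 4.38 in XY-WT and XY-KO.

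The wider splicing machinery was read from 7 lists of other splicing genes, 200 of whose 208 genes were in the tables. In XY-KO against XY-WT, 0 of the 200 were called higher and 5 lower (2.5%, against 2.27% of all genes). These were Sf3a2 and Sf3b4 of the U2 particle, the poly(C)-binding protein gene Pcbp1, and the RNA-binding regulators Msi1 and Rbm38. The last was named after its values were seen. The authors' deposited table gave Pcbp1 -0.67 (adjusted p 0.0469), Sf3a2 -0.88 (adjusted p 0.0255), Sf3b4 -0.91 (adjusted p 0.0114), Msi1 -1.01 (adjusted p 0.0209) and Rbm38 -1.01 (adjusted p 0.0171). Their transcripts had GC contents of 56.2% to 62.2%. With the GC and length trend subtracted, none of the 5 was called: Pcbp1 had -0.37 (adjusted p 0.303), Sf3a2 -0.45 (adjusted p 0.291), Sf3b4 -0.65 (adjusted p 0.0827), Msi1 -0.74 (adjusted p 0.11) and Rbm38 -0.60 (adjusted p 0.175).

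In XX-WT against XY-WT, 23 of the 200 other splicing genes were called (11.5%, against 23.3% of all genes), 12 higher and 11 lower. The tissue and alternative regulators held 11 of these among 44 genes (25.0%), 6 higher and 5 lower. Besides Mbnl3 and Rbfox1, Fmr1, the X-linked fragile X gene, rose by 0.66 in the authors' deposited table (adjusted p 0.00408). Qk, a STAR protein gene related to the KHDRBS family, fell by 0.62 (adjusted p 0.000874) in the authors' deposited table, Msi1 by 0.91 (adjusted p 0.00488) and Msi2 by 0.43 (adjusted p 0.0203). In XY-KO against XX-WT the authors' deposited table gave Qk 0.50, Msi2 0.60 and Fmr1 -0.60, each past the test, and Msi1 -0.10, which was not.

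Of 23 other SR and SR-related genes, 1 was called higher in XX-WT and none lower. This was Srsf12, which the authors' deposited table put at 1.10 (adjusted p 0.000255), with -0.11 in XY-KO against XY-WT and -1.22 in XY-KO against XX-WT. Of 8 kinases of SR proteins, the authors' deposited table had Srpk1 higher at 0.36 (adjusted p 0.0369). Of 30 other hnRNP and FET genes, Pspc1, the DBHS relative of Nono and Sfpq, rose by 0.59 in the authors' deposited table (adjusted p 0.013) and Hnrnph3 by 0.54 (adjusted p 0.0331), while Pcbp1 fell by 0.78 (adjusted p 0.00255).

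The lists of spliceosome genes differed in their share of calls between ovary and testis, where 23.3% of all genes were called: 5.26% of the snRNP and other U2 genes, 4.35% of the tri-snRNP, Prp19 and catalytic-step genes and 27.3% of the minor spliceosome genes. Of 38 snRNP and other U2 genes, Sf3a2 fell by 0.89 in XX-WT in the authors' deposited table (adjusted p 0.00278) and Sf3b4 by 0.75 (adjusted p 0.00417). Of 46 tri-snRNP, Prp19 and catalytic-step genes, the helicase gene Aqr fell by 0.40 in the authors' deposited table (adjusted p 0.0175) and Rbm22 by 0.44 (adjusted p 0.0261). Of 11 genes of the minor spliceosome, which removes a rare class of introns, the authors' deposited table gave the 3′ splice-site factors Zrsr2 0.77 (adjusted p 0.00297) and Zrsr1 0.55 (adjusted p 0.0299), both higher, and Snrnp25 -1.03 (adjusted p 0.0333). Of the 7 X-linked genes among the 200, 4 were called: Mbnl3, Zrsr2 and Fmr1 higher and Rbmx lower in XX-WT.

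In XY-KO against XX-WT, 13 of the 200 were called (6.5%, against 18.3% of all genes), 4 higher and 9 lower. Of these, 9 were tissue and alternative regulators, 4 higher and 5 lower. The rest were lower in XY-KO: 1 each of the SR-related, U2, tri-snRNP and minor spliceosome lists, and none of the kinases or hnRNPs. The 4 higher genes were Qk, Msi2, Rbms1 and Rbmx, the last 2 of which were named after their values were seen.

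**Figure D5:**
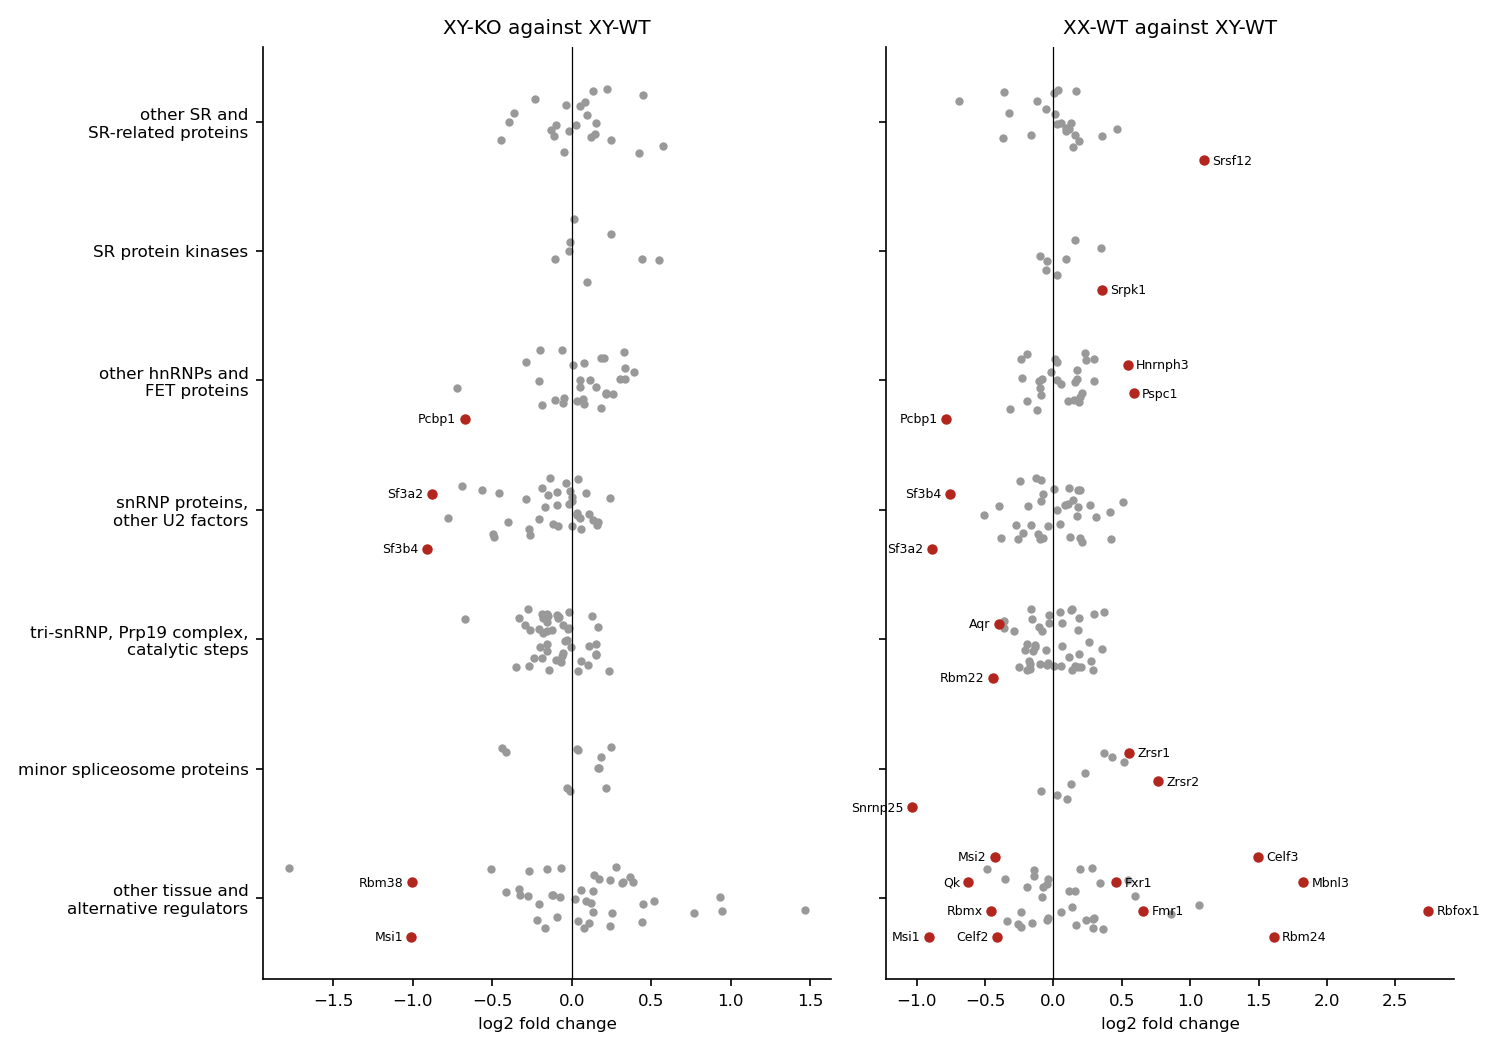
Log2 fold change of 200 other splicing genes by list in XY-KO against XY-WT and XX-WT against XY-WT, with named red points where the adjusted p was under 0.05 and a vertical scatter without meaning. All 5 red genes lie below 0 on the left, and on the right 12 lie above 0 and 11 below.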

How the data were processed

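The deposited data were 3 tables, 1 for each pair of groups, all holding the same 15300 genes. Each held the authors' log2 fold change, the authors' mean log2 expression, and the limma t and log-odds scores deposited beside them. The deposited p-value and its adjusted p-value completed each table, per the file headers. The submitters' processing notes name TopHat2 2.0.8 and the GRCm38 genome, Trimmomatic 0.30, limma 3.24.0 and HTSeq 0.6.1p1, and filters and strand were not given in the sources used here. RNA was amplified by the SPIA method and sequenced in pairs of 150 nt, per the labels' protocols.

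Recomputed adjusted p-values matched within a relative difference of 0.000769, and the 3 fold changes of a gene added up within 0.005. SE was the log2 fold change over t, and 95% intervals used 15.27 degrees of freedom. Group levels assumed equal weights, on the log2 CPM scale of the deposited means. Lengths, GC content and transcript types came from GENCODE M21 for 15192 genes. The trend with GC content and length was a robust fit of degree 3 polynomials, tested on simulated data. Per-sample values were not used here.

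Members and lists alike were chosen with earlier results of these data known. Named were called members, the 3 of smallest adjusted p where none was called, the 5 of widest range and, of each other list, up to 3 called genes in each direction in XX-WT against XY-WT. Other markers were read as lists. Of 5 erythroid markers, 1 was higher in XX-WT than in XY-WT and 3 were lower in XY-KO than in XX-WT, with sums of 390, 661 and 331 CPM in XY-WT, XX-WT and XY-KO. Of 5 endothelial markers, 1 was higher and 2 lower in XX-WT than in XY-WT, and of 4 macrophage markers 1 was higher. Of 5 neural markers 1 rose and 1 fell in XY-KO against XY-WT. Listed genes outside the tables were not analysed here. Computations used statsmodels 0.14.6, scipy 1.17.1 and pandas 2.3.3 with numpy 2.4.6 in Python 3.11.15.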

Additional observations from a re-analysis of the deposited data

How the results depend on the processing

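No paired analysis was possible because the tables held group comparisons whose columns carry no replicate, and for the same reason leaving out each replicate was not run. No called value changed sign under these settings. With the GC and length trend removed, 17 member values that were not called either way changed sign, 6 of them in XY-KO against XY-WT, 7 in XX-WT against XY-WT and 4 in XY-KO against XX-WT. Of the 102 member values (34 members in 3 comparisons), 97 kept their side of the threshold with a 2-fold limit, 96 under Bonferroni, 98 at an adjusted p under 0.01, and 101 without the GC and length trend or with adjustment over the 3 comparisons together. Among genes at or above the median level, 96 of 96 kept theirs. For the splicing regulators, the 2 higher and 2 lower in XX-WT against XY-WT became 0 and 0 with the 2-fold limit and under Bonferroni, and 1 and 0 at an adjusted p under 0.01. In XY-KO against XX-WT, the 1 higher became 0 under those 3 settings and the 1 lower became 0 under Bonferroni. In XY-KO against XY-WT, 1 was higher when adjusted over the 3 comparisons. For the other splicing genes in XX-WT against XY-WT, the 12 higher became 5 with the 2-fold limit, 2 under Bonferroni and 6 at 0.01, and the 11 lower became 1, 0 and 5. With the trend removed, 10 were higher and 10 lower in that comparison. In XY-KO against XX-WT, the 4 higher became 0 and 0 with the 2-fold limit and Bonferroni, and the 9 lower became 4, 1 and 3 at 0.01. In XY-KO against XY-WT, 7 were higher when adjusted over the 3 comparisons, and the 5 lower became 8 there, 2 with the 2-fold limit, 2 at or above the median level, and 0 under Bonferroni, with the trend removed and at 0.01. The stricter settings call fewer genes by construction. The setting at or above the median level leaves out all genes below it, so these cannot be called there. The cause of the other moves was not tested. Depth was unknown, so precision rests on the SE, whose median over the members was 0.148 in XY-KO against XY-WT.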
